A study of Homo sapiens with 6 samples.

Results

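The Krüppel-like factors (KLFs) described here are 10 genes, KLF2, KLF3, KLF4, KLF6, KLF7, KLF9, KLF10, KLF11, KLF12 and KLF13, taken by gene name from a table of 21494 genes. All 10 had a row, and all 10 were among the 16756 genes that passed the filter on low counts. RNA-seq was performed on 6 samples of stable cell lines made with lentiviral pLKO.1 vectors under puromycin selection. Control sh (3 samples, genotype label WT) carried a control shRNA, and VprBP sh (3 samples, genotype label DCAF1 Knockdown) carried an shRNA against VprBP, a chromatin-bound kinase and ubiquitin ligase adaptor encoded by DCAF1. The study gives a single shRNA sequence against VprBP, and whether a line was a clone or a pool was not stated. The labels name the cells G361, a melanoma line, but give LD611 as their source. Nothing states that the 3 samples of a group were separate cultures, so the p-values measure only the spread between these samples, which may be technical.

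KLFs are transcription factors that bind GC-rich and CACCC sequences through zinc fingers at their C-terminal end, and their differing N-terminal regions recruit coactivators or corepressors. KLF2, KLF4, KLF6 and KLF7 carry activating regions, KLF3 and KLF12 bind the corepressor CtBP, and KLF9, KLF10, KLF11 and KLF13 bind the SIN3 corepressor. KLF10 and KLF11 are known as early response genes of TGF-beta that dampen cell growth, and KLF4 and KLF6 are studied as growth suppressors in many tumors.

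Several features of the samples bear on every value. Total counts ran from 18195949 to 26883948 per sample. DCAF1, the gene the shRNA targets, had normalized counts (counts scaled by upper quartile factors) of 797, 971 and 838 in Control sh and 760, 507 and 481 in VprBP sh. Its log2 fold change was -0.58 ± 0.17 (SE) with an adjusted p of 0.0125 by edgeR's quasi-likelihood test. It therefore did not reach the 2-fold criterion, and the adjusted p was 0.0851 with scaling by library size alone and 0.0839 with replicates 2 and 3 summed. Of 7 melanocyte markers, 4 had a row in the table used, and their summed normalized counts ran from 199 to 236 in Control sh and from 244 to 308 in VprBP sh. SOX10, TYR and DCT had no row there, and MLANA had at most 5 counts in any sample. Of 8 urothelial markers 6 had a row, and their sum ran from 103564 to 113339 in Control sh against 24395 to 27818 in VprBP sh. KRT20 and UPK3A had no row. Most of the Control sh sum came from KRT5 and KRT7 (means of 64989 and 35085), while UPK1B and UPK2 had means of 650 and 211. Of those 6 markers, 1 was called higher and 4 lower in VprBP sh, beside 24.5% higher and 22% lower over all genes tested. Among those called were TP63 (8929 ± 1020 against 9.44 ± 0.979 normalized counts) and GATA3 (3.07 ± 4.40 against 1529 ± 205). UPK1B was at 0 counts in all 3 VprBP sh samples. The part of these cell type differences in the KLF values was not tested.

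Promoter stretches of KLF genes that rose or fell are shown first, because KLF proteins bind the GC boxes and CACCC boxes found in them. Each runs 5′ to 3′ on the strand of its gene and ends before the start of transcription that it belongs to. No base of it lies in an annotated untranslated region of that gene. They come from RefSeq on GRCh38.p14. Capitals mark matches on either strand to the GC box with letters GGGCGG, the CACCC box, the SMAD box with letters CAGAC, the CCAAT box, and the cyclic AMP response element (CRE) with letters TGACGTCA.
KLF11, chr2:10043971-10044174, plus strand: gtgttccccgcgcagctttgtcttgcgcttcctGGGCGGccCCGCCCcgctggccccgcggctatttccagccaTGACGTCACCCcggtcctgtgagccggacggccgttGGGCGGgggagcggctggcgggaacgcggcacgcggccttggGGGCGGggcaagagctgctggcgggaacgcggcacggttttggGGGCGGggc
KLF2, chr19:16324576-16324825, plus strand: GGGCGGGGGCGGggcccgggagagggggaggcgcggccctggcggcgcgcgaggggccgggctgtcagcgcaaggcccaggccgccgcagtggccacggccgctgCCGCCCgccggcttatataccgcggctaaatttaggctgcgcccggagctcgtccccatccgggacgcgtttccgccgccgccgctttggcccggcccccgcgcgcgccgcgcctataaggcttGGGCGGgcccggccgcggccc
KLF6, chr10:3785282-3785459, minus strand: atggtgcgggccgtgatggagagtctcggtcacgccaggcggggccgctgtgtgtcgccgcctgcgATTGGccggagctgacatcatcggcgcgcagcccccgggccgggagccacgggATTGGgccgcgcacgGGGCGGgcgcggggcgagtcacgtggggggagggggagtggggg
KLF13, chr15:31326585-31326834, plus strand: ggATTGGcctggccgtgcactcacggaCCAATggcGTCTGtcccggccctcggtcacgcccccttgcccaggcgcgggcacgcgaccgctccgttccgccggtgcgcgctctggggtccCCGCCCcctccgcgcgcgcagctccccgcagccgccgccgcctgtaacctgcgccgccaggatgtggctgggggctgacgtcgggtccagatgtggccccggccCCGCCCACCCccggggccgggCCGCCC
The KLF11 stretch of 204 bases was 75% G or C and held 5 GC boxes, 1 CACCC box and 1 CRE, and the CRE, at -176 from the start at base 10044221, overlaps the CACCC box. It lies within the annotated span of KLF11, upstream of an internal start, while the other stretches lie outside the spans of their genes. The KLF2 stretch was 80% G or C with 4 GC boxes and no CACCC box. KLF6 had 1 GC box and 2 CCAAT boxes in 178 bases, and KLF13 had 3 GC boxes, 1 CACCC box, 1 SMAD box and 2 CCAAT boxes in 250 bases. Each of the 4 stretches shown, from 2 genes that rose and 2 that fell, was at least 75% G or C.

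RefSeq promoters (250 bases before to 50 after a start) were matched for 8 of the 10 genes, in 15 entries, and none was matched for KLF3 and KLF10. A GC box lay in at least 1 promoter of 7 of the 8 genes and in 8 of 15 entries, beside 45% of all 35116 promoters. Of the 4 KLF7 promoters, 1 held a GC box. A CACCC box was found in 4 of the 8 genes and in 7 of 15 entries, where 59.9% of all promoters hold one. SMAD boxes occurred in 4 of 15 entries (45.3% of all promoters), and CCAAT boxes in 6 of 15 (34.6% of all promoters). The CRE was found in 1 entry, the KLF11 entry shown above, and in 1.85% of all promoters. The other KLF11 entry, with its start at base 10043829, held 2 GC boxes and 2 SMAD boxes but no CACCC box and no CRE. These are matches of letters, not measured binding sites.

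In VprBP sh, 2 of the 10 KLF genes were called higher and 4 were called lower, a call being an adjusted p under 0.05 and a fold change over 2. KLF2 and KLF11 rose about 10.9-fold and 9.84-fold, and KLF10, KLF7, KLF6 and KLF13 fell 5.29-fold, 3.38-fold, 2.71-fold and 2.17-fold, as ratios of mean normalized counts. KLF3, KLF4, KLF9 and KLF12 did not pass both criteria. Over all 16756 genes tested, 24.5% were called higher and 22% were called lower, so that a share of 2 in 10 higher lies near that of all genes and a share of 4 in 10 lower lies above it, with no test of that difference. An adjusted p under 0.05 at any fold was found for 9 of the 10, beside 76.4% of all genes. The groups did not overlap for 9 of the 10, beside 79.5% of all genes. With scaling by library size alone the split was 3 higher and 3 lower, because KLF4 passed both criteria and KLF13 did not. The median log2 fold change of the 10 genes was -0.68 beside 0.08 for all genes tested. Scaling moved both medians together (all genes at -0.01 with TMM factors and 0.29 with library size alone), and the difference between them was -0.77 under each of the 4 scalings. A change of scaling shifts all genes by nearly the same amount, so this steadiness lends no support to the difference. In these bulk samples, fewer cells of a type and less RNA per cell cannot be told apart. An exact permutation test of 3 samples against 3 cannot go below p = 0.1, which every KLF gene but KLF4 reached.

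**Figure D1:**
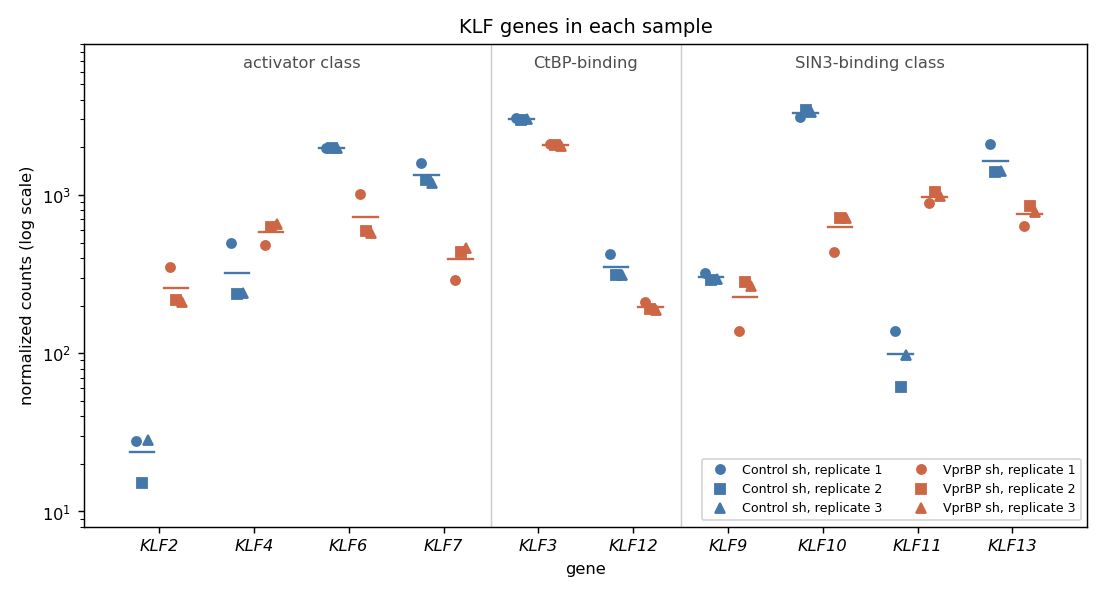
Normalized counts (log scale) of the 10 KLF genes in each sample, with Control sh in blue and VprBP sh in orange, symbols for replicates 1 to 3 and short lines for group means. KLF2 and KLF11 are the genes whose VprBP sh samples all lie far above Control sh, and only KLF4 has overlapping groups.

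Among the activators, KLF2 moved most. KLF2 (ENSG00000127528.6, chr19:16324826-16328685, plus strand, hg38) keeps lymphocytes and endothelial cells quiescent. Its counts were 24, 14 and 30 in Control sh and 313, 208 and 276 in VprBP sh, which are normalized counts of 27.8, 15.2 and 28.4 against 349, 216 and 212. The Control sh samples were low in number, and the highest of them lay well below the lowest VprBP sh sample. The log2 fold change was 3.43 ± 0.30 (SE) with an adjusted p of 4.41e-06, and 15% of all genes tested changed by more in either direction. KLF2P1, a processed pseudogene of KLF2 on chromosome 2, had 0 counts in all 3 Control sh samples and 10, 21 and 9 in VprBP sh. Reads could be split between KLF2 and this copy, and its counts were far smaller than those of KLF2.

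KLF4 (ENSG00000136826.15, chr9:107484852-107490482, minus strand) maintains epithelial barriers and is a reprogramming factor. It had 494, 236 and 241 normalized counts in Control sh against 481, 626 and 651 in VprBP sh. Control sh replicate 1 was above VprBP sh replicate 1, so the groups overlapped, and the exact two-sided permutation p was 0.2. The log2 fold change of 0.86 ± 0.27 (SE), with an adjusted p of 0.0147, did not reach 2-fold. Without Control sh replicate 1 it was 1.30 with an adjusted p of 0.000243, which passes both criteria, so the missing call depends on that sample. Without Control sh replicate 2 or replicate 3 it was 0.68 each time, with edgeR adjusted p of 0.0589 and 0.0594.

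KLF6 (ENSG00000067082.15, chr10:3775996-3785281, minus strand) is a widely expressed factor with growth-suppressing isoforms. In Control sh its 3 samples were nearly equal at 1977, 1977 and 1976 normalized counts, and in VprBP sh they were 1016, 591 and 578. VprBP sh replicate 1 stood above the other two and still well below Control sh. KLF6 fell by 1.44 ± 0.20 (SE) on the log2 scale with an adjusted p of 9.26e-05.

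KLF7 (ENSG00000118263.15, chr2:207074137-207167267, minus strand) is best known for axon growth in neurons. Normalized counts of 1598, 1236 and 1187 in Control sh compared with 291, 438 and 459 in VprBP sh. Replicate 1 was the highest in Control sh and the lowest in VprBP sh, and the groups were far apart. KLF7 fell by 1.75 ± 0.18 (SE) on the log2 scale with an adjusted p of 1.58e-05. MYOSLID, a lncRNA on the opposite strand that overlaps KLF7, had 252, 233 and 195 counts in Control sh against 0, 3 and 0 in VprBP sh. Whether reads were counted by strand was not stated, so reads of KLF7 and MYOSLID may not be told apart where they overlap, although the MYOSLID counts are far below those of KLF7.

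Both CtBP-binding genes had lower means in VprBP sh by under 2-fold and were not called. KLF3 (ENSG00000109787.13, chr4:38664197-38701517, plus strand), a repressor in blood and fat cells, had 3046, 2959 and 2999.7 normalized counts in Control sh against 2096, 2074 and 2026 in VprBP sh. The 6 values fell into separate groups, with SDs of 43.6 and 35.6 around means of 3002 and 2065. Its log2 fold change was -0.54 ± 0.07 (SE) with an adjusted p of 7.66e-05, short of 2-fold. KLF3-AS1, on the opposite strand and overlapping KLF3, had 27, 16 and 22 counts in Control sh against 11, 14 and 30 in VprBP sh, and its adjusted p was 0.301.

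KLF12 (ENSG00000118922.18, chr13:73686089-74133929, minus strand), a repressor of the TFAP2A gene, had 421, 311 and 313 normalized counts in Control sh against 209.9, 191 and 186 in VprBP sh. Every Control sh sample lay above every VprBP sh sample. The log2 fold change was -0.83 ± 0.15 (SE) with an adjusted p of 0.000753, again under 2-fold. TFAP2A itself differed by -0.09 ± 0.11 (SE) on the log2 scale, with an adjusted p of 0.468.

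Among the SIN3-binding genes, the closely related KLF10 and KLF11 moved in opposite directions. KLF10 (ENSG00000155090.15, chr8:102648784-102655725, minus strand), the original TGF-beta-inducible early gene, had 2691, 3159 and 3530 counts in Control sh against 391, 691 and 933 in VprBP sh. As normalized counts these are 3119, 3434 and 3347 against 437, 718 and 715. All Control sh samples were high and close together, and VprBP sh replicate 1 was the lowest sample. KLF10 fell by 2.40 ± 0.17 (SE) on the log2 scale with an adjusted p of 1.14e-06.

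KLF11 (ENSG00000172059.11, chr2:10042849-10054836, plus strand) is a TGF-beta-inducible repressor also studied in insulin-producing cells. Its counts were 119, 56 and 103 in Control sh and 799, 1004 and 1280 in VprBP sh, or normalized counts of 138, 60.9 and 97.7 against 892, 1043 and 981. Control sh replicate 1 was the highest and replicate 2 the lowest of that group, and all were far below the VprBP sh samples. KLF11 rose by 3.30 ± 0.23 (SE) on the log2 scale with an adjusted p of 9.64e-07, and 15.5% of all genes tested changed by more. KLF11 is among the growth regulators that the study picked from these samples as raised after knockdown, so its direction here is not independent evidence.

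KLF13 (ENSG00000169926.11, chr15:31326835-31435665, plus strand), an activator of the chemokine gene CCL5 in T cells, had 2085, 1396 and 1418 normalized counts in Control sh against 639, 847 and 777 in VprBP sh. Control sh replicate 1 was well above the other two, and the groups did not overlap. KLF13 fell by 1.11 ± 0.17 (SE) on the log2 scale with an adjusted p of 0.000216. Without Control sh replicate 1 the change was -0.90, which is under 2-fold, so this call rests on that sample. A test against a 2-fold change (glmTreat) gave an adjusted p of 0.24.

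KLF9 (ENSG00000119138.5, chr9:70384604-70414657, minus strand), which glucocorticoids and thyroid hormone induce, had 322, 289 and 295 normalized counts in Control sh against 137, 281 and 267 in VprBP sh. VprBP sh replicate 1 lay apart from the other two, which were close to Control sh. The log2 fold change of -0.40 ± 0.23 (SE) had an adjusted p of 0.148, the only one of the 10 above 0.05.

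**Figure D2:**
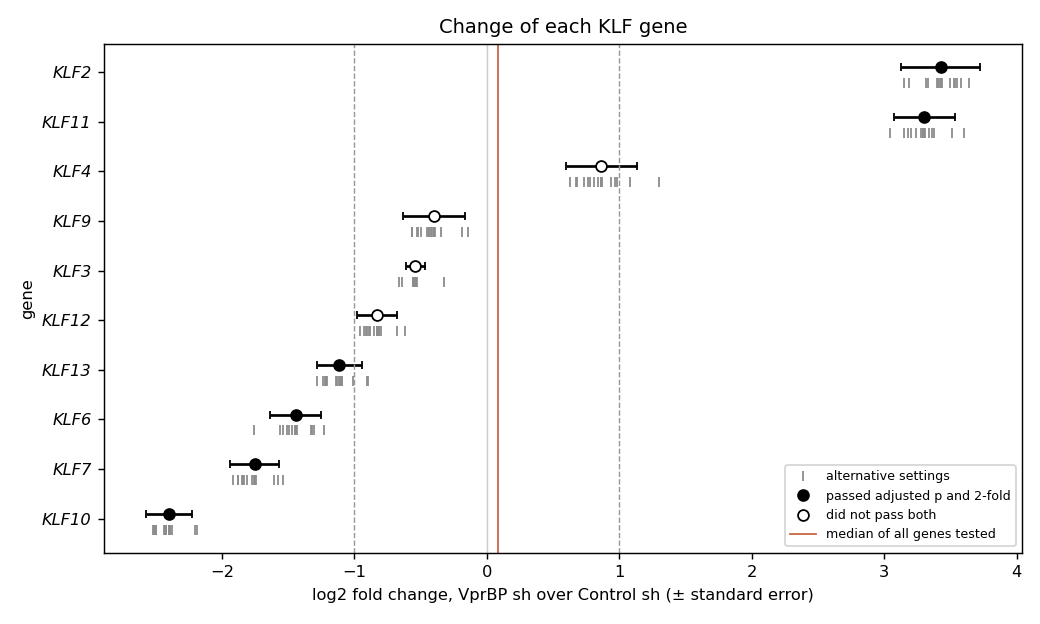
Log2 fold change (VprBP sh over Control sh) with its standard error for each KLF gene, filled where both criteria were passed, with grey ticks for the alternative settings and dashed lines at 2-fold. KLF2 and KLF11 lie near 3.4 and 3.3, KLF10 at -2.40, and the ticks of KLF4 and KLF13 cross the 2-fold line.

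By class, the activators gave 1 gene higher and 2 lower, the CtBP-binding genes gave 0 of 2 called, and the SIN3-binding genes gave 1 higher and 2 lower. Both CtBP-binding genes had lower means in VprBP sh, each by under 2-fold, and the other classes held genes that rose and genes that fell. The plot of fold changes shows the 2 genes that rose standing apart from the other 8, and the plot of counts by sample shows their 3 Control sh samples at the bottom of the scale.

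Levels of different genes can be compared only per length, here as normalized counts per kb of exon. In Control sh KLF10 was highest with 864 ± 42.6 (SD, n = 3), followed by KLF3 with 443 ± 6.43 and KLF6 with 322 ± 0.149. KLF13 (173 ± 41.5), KLF7 (139 ± 23.4) and KLF4 (88.3 ± 40.3) came next, and the samples of KLF13 and KLF7, and of KLF7 and KLF4, overlapped. KLF9 (58.1 ± 3.40), KLF12 (30.2 ± 5.44), KLF11 (21.5 ± 8.39) and KLF2 (8.45 ± 2.65) were lowest, with KLF12 and KLF11 overlapping.

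In VprBP sh the order per kb began with KLF3 at 305 ± 5.26 (SD, n = 3) and KLF11 at 212 ± 16.5, whose samples lay below those of KLF3 and above those of KLF10. KLF10 (163 ± 42.3), KLF4 (159.98 ± 25.0), KLF6 (119 ± 40.6), KLF2 (91.9 ± 27.8) and KLF13 (79.97 ± 11.2) followed, and each overlapped its neighbour in the order. KLF9 (43.9 ± 15.2) and KLF7 (41.2 ± 9.51) overlapped as well, and KLF12 was lowest at 17.0 ± 1.08. KLF11 moved from ninth to second place in the order. With the longest transcript as length, the Control sh order was the same, and in VprBP sh only overlapping neighbours changed places.

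Of the summed level per kb of the 10 genes, KLF10 made up 40.3% in Control sh and 13.2% in VprBP sh, and KLF11 made up 0.994% and 17.2%. KLF3 was 20.7% and 24.8%. The sum itself was 2249, 2099.97 and 2095 in Control sh and 1181, 1271 and 1244 in VprBP sh, so it was lower in every VprBP sh sample.

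**Figure D3:**
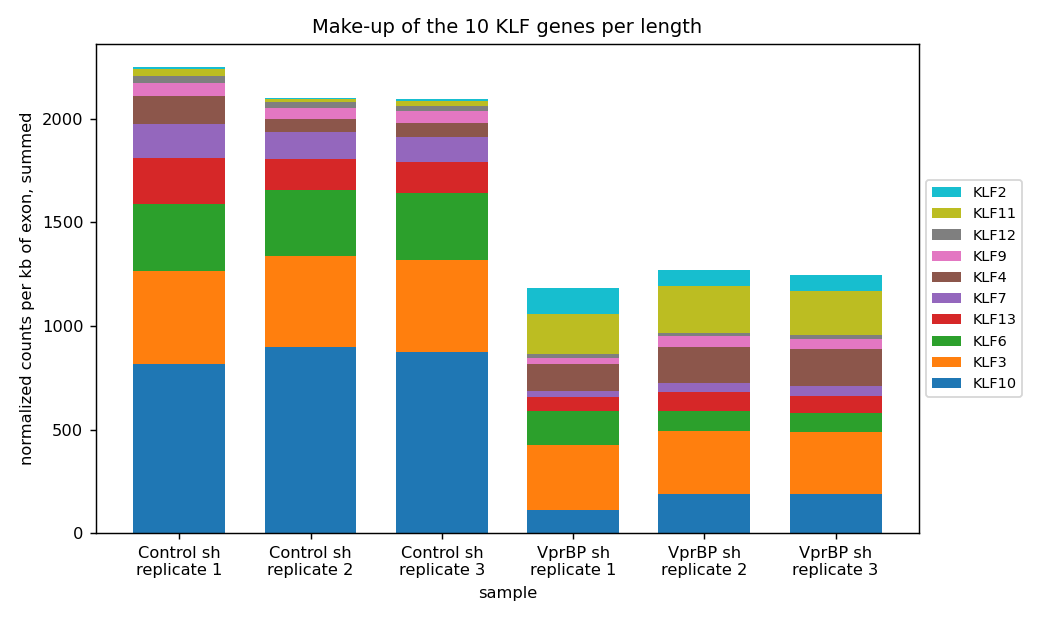
Stacked bars of normalized counts per kb of exon for the 10 KLF genes in each of the 6 samples, from 0. The Control sh bars reach 2095 to 2249 with KLF10 as the largest band, and the VprBP sh bars reach 1181 to 1271 with KLF3 and KLF11 as the largest.

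Ratios of a pair of genes within a sample do not depend on the scaling between samples. KLF11 over KLF10, per kb, was 0.0368, 0.0147 and 0.0243 in Control sh and 1.70, 1.21 and 1.14 in VprBP sh. The ratio was far below 1 in all Control sh samples and above 1 in all VprBP sh samples (exact two-sided permutation p = 0.1, the smallest possible). KLF2 over KLF4 was 0.0732, 0.0838 and 0.153 in Control sh and 0.943, 0.449 and 0.422 in VprBP sh (exact two-sided permutation p = 0.1). These pairs were picked after the values were known and are given as a description.

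The other KLF genes and the related SP factors, which bind the same GC boxes, gave 4 higher and 3 lower of 12 tested, of 14 in the table, beside 24.5% higher and 22% lower over all genes. SP6, a factor of tooth and skin epithelium, had 192, 201 and 206 counts in Control sh against 2494, 3689 and 4900 in VprBP sh (log2 fold change 4.03, adjusted p 1.32e-08). KLF8, a CtBP-binding relative of KLF3 and KLF12, rose by 1.65 on the log2 scale, and SP4 rose by 1.34. SP8 had 0 counts in Control sh and 48, 22 and 32 in VprBP sh, at least 10.5-fold higher against a floor of 3 counts per library. KLF5, which promotes growth of basal epithelial cells, had 8864, 8982 and 9822 counts in Control sh against 1696, 2137 and 2782 in VprBP sh and fell by 2.23 on the log2 scale (adjusted p 2.72e-08). SP9 fell by 1.47, and SP5 went from 17, 21 and 24 counts to 0 in all 3 VprBP sh samples, at least 7.45-fold lower. The median of this list was 0.07, near the 0.08 of all genes, and was -0.03 with TMM factors. KLF17 was not tested, with 0 counts in Control sh and 17, 8 and 5 in VprBP sh.

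Of 11 corepressors and coactivators of the KLFs tested, 1 was called higher and 0 lower by edgeR, beside 24.5% higher and 22% lower over all genes. DESeq2 also called 1 higher and 0 lower. An adjusted p under 0.05 at any fold in either direction was found for 5 of the 11 by edgeR, beside 76.4% of all genes. That count depended on the scaling: it was 7 with TMM factors, 7 with DESeq2 and 9 with library size alone. All genes gave 12747, 12601 and 13047 of 16756 in these fits. The list median was 0.05 beside 0.08 for all genes. SAP30, a subunit of the SIN3 complex, rose from 107 ± 10.7 to 464 ± 66.6 normalized counts (SD, n = 3 each) with a log2 fold change of 2.11 and an adjusted p of 1.35e-06. SIN3A, the scaffold that KLF9, KLF10, KLF11 and KLF13 bind, differed by -0.67 on the log2 scale (adjusted p 2.18e-05), and FHL3, a coregulator of KLF3, by -0.61 (adjusted p 0.00172). EP300, a histone acetyltransferase, differed by 0.76 (adjusted p 1.65e-05). The changes of SIN3A, FHL3 and EP300 were under 2-fold.

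Genes known to induce KLFs or to degrade their proteins gave 1 higher and 7 lower of 19 tested, beside 24.5% higher and 22% lower over all genes. The list median was -0.21 beside 0.08 for all genes. The largest changes were in the TGF-beta pathway, the inducer of KLF10 and KLF11. The part of this pathway in the changes of KLF10 and KLF11, which moved in opposite directions, was not tested. SMAD4, the common signal transducer of the pathway, had 931, 1031 and 1207 counts in Control sh against 5, 3 and 4 in VprBP sh (log2 fold change -8.15, adjusted p 1.11e-09). TGFB1, its ligand, had 3941, 3084 and 3646 counts in Control sh against 28, 57 and 91 in VprBP sh (log2 fold change -6.11, adjusted p 2.14e-08). These values lay far apart in all samples. SMAD3 and the receptor TGFBR2 fell by 3.07 and 1.09 on the log2 scale, while TGFBR1 differed by 0.10 and SMAD2 by 0.77, without passing 2-fold. FBXO32, a ubiquitin ligase subunit, fell by 3.21, the transcription factor FOXO1 by 2.79 and the ubiquitin ligase WWP1 by 1.32. SIAH1, a ubiquitin ligase that acts on KLF10, rose by 1.02 on the log2 scale, a call that was lost with TMM factors and with DESeq2. VHL, a ubiquitin ligase subunit, differed by 0.90, under 2-fold.

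Known KLF target genes gave 2 higher and 5 lower of 12 tested, beside 24.5% higher and 22% lower over all genes. The list median was -0.74 beside 0.08 for all genes. It was the same with genes near 0 set to their bounds, which lie below the median and so could not move it. THBD, the endothelial thrombomodulin gene that KLF2 and KLF4 activate, had 13877, 13410 and 14900 counts in Control sh against 0 in all 3 VprBP sh samples, at least 5109-fold lower. S1PR1, a KLF2 target in lymphocytes, had 54, 34 and 67 counts in Control sh against 0 in all 3 VprBP sh samples, at least 18.6-fold lower. NOS3, another endothelial target of KLF2, had 33, 17 and 32 counts in Control sh against 0, 0 and 1 in VprBP sh. These genes, known as activated by KLF2, were lower in the samples in which KLF2 was higher. The groups also differed in cell type markers, and whether KLF2 acted on these genes here was not tested.

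MAOA, which encodes monoamine oxidase A and is a target of KLF11, had 1380, 1503 and 1803 counts in Control sh against 4, 9 and 24 in VprBP sh, a log2 fold change of -7.14 with an adjusted p of 1.13e-08. CDKN1A, the cell cycle inhibitor that KLF4 and KLF6 activate, fell by 3.24 on the log2 scale, from 2641 ± 735 to 279 ± 33.0 normalized counts (SD, n = 3 each). LGALS3, a target that KLF3 represses, rose by 1.87 on the log2 scale (adjusted p 1.31e-05). ARNTL, a clock gene, rose by 1.05, a call that was lost with TMM factors and with DESeq2. The list's members thus moved in both directions.

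**Figure D4:**
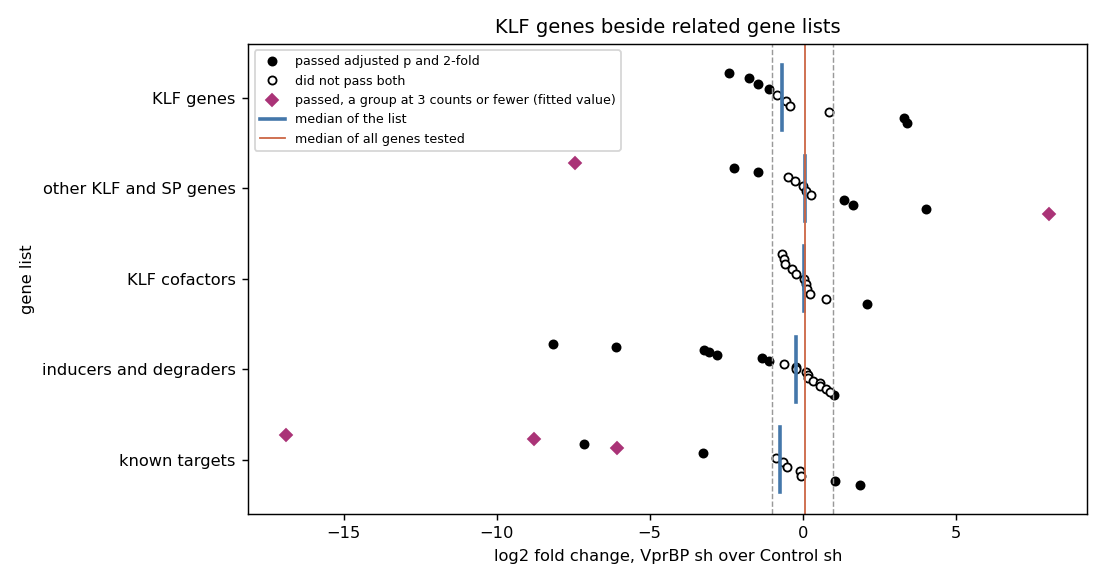
Log2 fold change (VprBP sh over Control sh) of every tested gene of the 10 KLF genes and of 4 related lists, filled where both criteria were passed, with list medians in blue and the median of all genes tested in orange. Diamonds mark genes with a group at 3 counts or fewer, whose fitted positions depend on the prior count and are no bounds. Each list spans both sides of the median of all genes.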

How the data were processed

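Per the labels and the study's methods, reads of 6 libraries were aligned to hg38 with STAR and quantified per gene in Partek Flow, and the authors deposited estimated counts that were not scaled. Of the values 59.4% were whole, and every gene sums to at least 10. The kit is named differently by the labels and the methods, and whether strand was used in counting is not given in the sources used here. Estimated counts were rounded and tested with the quasi-likelihood test of edgeR 4.0.16 in R 4.3.3, with upper quartile factors (quantile 0.75), its low-count filter (minimum 10) and no replicate block. P-values were Benjamini-Hochberg adjusted over all 16756 genes tested. A call needs an adjusted p under 0.05 and a fold over 2. Standard errors are the log2 fold change over the square root of F. A floor of 3 counts corresponds to 2.30 to 3.48 normalized counts and covers counting error only. Of the alternatives, 16 were run, including limma 3.58.1 and DESeq2 1.42.0. The fit was also run on simulated data with few changed genes, equally many in each direction. That setting differs from these samples, where many genes were called, so it does not test the scaling here. Coordinates are hg38 as deposited, and exon lengths and overlaps are from GENCODE 44. Named genes are the 10 KLF genes, DCAF1, overlapping genes and, in each list, the 2 largest changes per direction and every called gene where 5 or fewer were called in a direction. FBXO32, FOXO1, SMAD3, WWP1, TGFBR2, TGFBR1, SMAD2, TFAP2A, KLF17, TP63 and GATA3 were named after their values were seen. The members and lists were chosen with earlier results of these data known.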

Additional observations from a re-analysis of the deposited data

How the results depend on the processing

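Of 160 fold changes of KLF genes under the alternatives, 155 stayed on the same side of the call and 0 reversed. The other 5 were those of KLF4, called with library size alone (1.08) and without Control sh replicate 1 (1.30), and of KLF13, not called with library size alone (-0.90), without Control sh replicate 1 (-0.90) and with glmTreat. Across alternatives KLF2 ran from 3.15 to 3.64, KLF11 from 3.05 to 3.60 and KLF10 from -2.52 to -2.19 on the log2 scale. Samples with the same replicate number did not deviate together (r of -0.145, -0.0298 and -0.106 over 13320 genes). Pairs with different numbers ran from -0.112 to 0.144. No shared effect of the number was seen, but this cannot tell whether such samples were prepared together. With a replicate block, 2 KLF genes were called higher and 4 lower, and DCAF1 was at -0.60 with an adjusted p of 0.0274. Over all genes, a minimum of 10 counts in every sample gave 2694 calls higher and 1996 lower of 13103 tested. The main fit gave 4097 higher and 3681 lower of 16756. That minimum removes genes near 0 counts in a group, such as THBD, and its part in the difference was not tested. KLF2, with 14 to 30 counts in Control sh, had the largest standard error of the 10 genes (0.30), and 3 samples a group limit every value.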

Other observations

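ENSG00000283959, a lncRNA 516 bases from KLF10 on the opposite strand and named here after its values were seen, had 115, 83 and 103 counts in Control sh against 0 in all 3 VprBP sh samples, at least 36.6-fold lower. Within groups, replicates 2 and 3 were the closest pair for 7 of 10 KLF genes in Control sh and 9 of 10 in VprBP sh, where 56.6% and 62.4% of all tested genes showed the same. KLF14 and KLF15, which belong to the same family, had at most 14 counts in any sample. KLF14 did not pass the filter on low counts, and KLF15 had a log2 fold change of 0.12 ± 0.74 (SE) with an adjusted p of 0.887 by edgeR.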
